A study of Mus musculus with 16 samples.

Results

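The 9 genes Otx2, Fgf5, Pou3f1, Zic2, Tcf15, Sox3, Lin28a, Lin28b and Utf1, which are associated with formative and primed pluripotency, were followed in mouse embryonic stem cells (mESCs) of 3 lines, each grown in serum and in 2i medium. They were chosen by name, through all non-control probes whose RefSeq accession belongs to 1 of them. This gave 10 probes of the 55681 non-control probes on the array and 9 of the 21171 genes that a probe could be named for. Each gene had 1 probe except Lin28b, which had 2. All 9 genes passed the filter on dim probes, Fgf5 through TKO-serum and 3B3l-serum alone. RNA was measured on 16 one-colour Agilent arrays with 1 sample each.

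J1 is a wild-type male mESC line, and the other lines were derived from it. TKO cells lack functional Dnmt1, Dnmt3a and Dnmt3b, the enzymes that maintain and set DNA methylation. 3B3l cells (3B3-3l in the labels) are knocked out for Dnmt3a and Dnmt3b, keep Dnmt1, and carry exogenous Dnmt3b and its cofactor Dnmt3l under constitutive expression. Serum medium held 15% fetal calf serum and 500 U/ml LIF. The 2i cultures were kept for 2 weeks in serum-free N2B27 with 1 uM of the MEK inhibitor PD0325901, 3 uM of the GSK3 inhibitor CHIR99021 and 1000 U/ml LIF. The arrays comprised 4 of J1-serum, 3 of J1-2i, 2 of TKO-serum, 3 of TKO-2i, 2 of 3B3l-serum and 2 of 3B3l-2i. Per the methods the J1-serum cells grew on inactivated SNLP feeder cells and all other cultures on gelatin without feeders. TKO and 3B3l are each 1 derived line, so a difference from J1 describes that line and not a genotype. In serum it cannot be told apart from the feeder cells of J1.

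Pluripotent cells pass from a naive state, held by LIF and by blocking the FGF to ERK pathway, through a formative state, in which the cells become competent to respond to lineage signals, to the primed state of the epiblast before gastrulation. Otx2 and Pou3f1 (Oct6) are transcription factors that redirect Oct4 to new enhancers on exit from naive pluripotency. Fgf5 is a secreted growth factor and a classical marker of the early epiblast. Lin28a and Lin28b are RNA-binding proteins that block maturation of let-7 microRNAs. Serum cultures are known to hold cells that fluctuate towards this exit, while 2i holds cells in the naive ground state.

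Values are log2 of the background-subtracted fluorescence intensity minus the 75th percentile of the array, so that 0 is the brightness of a spot at that percentile. They are levels of 1 probe and can be compared between arrays but not between genes. Differences, standard errors (SE) and adjusted p-values came from 1 limma fit of all 6 groups, and a gene was called when the adjusted p was at most 0.05 and the change at least 2-fold. The labels do not say that replicates were separate cultures, so the p-values measure only the spread between these samples. In bulk RNA, fewer cells of a type and less RNA per cell cannot be told apart.

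The knocked-out genes were read first. Dnmt1 lay between 1.61 and 2.45 on the J1 arrays and between -1.70 and -1.42 on the TKO arrays. Every TKO and 3B3l array left Dnmt3a at background. The brightest of the 3 Dnmt3b probes lay between 5.44 and 6.01 on the 3B3l arrays, which carry exogenous Dnmt3b, and between -0.70 and -0.25 on the TKO arrays. The other 2 Dnmt3b probes had group means of 0.78 or less in 3B3l and 2.51 and 4.23 in J1-serum, so the probes of this gene disagree in 3B3l. Which part of the gene the transgene or the knockout covers was not analysed here. The ES cell markers Pou5f1, Nanog, Sox2, Zfp42, Esrrb, Tdgf1 and Dppa5a were well above background on all arrays. The 75th percentile of an array lay between 1019 and 1797 intensity units, and 39.7% to 49.0% of spots were well above background.

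Markers of other cell types moved with the groups. The 19 fibroblast markers had a summed level, as a multiple of the 75th percentile, of 76.9 to 92.7 in J1-serum and 3.57 to 3.84 in J1-2i. It was 23.2 to 24.3 in TKO-serum, 6.82 to 7.30 in TKO-2i, 93.3 to 94.8 in 3B3l-serum and 5.82 to 6.17 in 3B3l-2i. Of the 19, 14 were well above background on every J1-serum array and 12 in each of TKO-serum and 3B3l-serum, while the defining marker Postn was so on 1 array only and Lum on none. The similar sums of J1-serum and 3B3l-serum came from different genes. S100a6 and Tagln, which many cell types express, made up 73.7 to 74.3 of the sum in 3B3l-serum and 29.6 to 35.6 in J1-serum, and the other 17 markers 19.5 to 20.5 and 44.9 to 57.1. Against J1-serum, 2 of the 15 tested markers were higher in 3B3l-serum and 8 lower (median log2 difference -1.26), and Dcn was not well above background on any 3B3l array. Between these 2 groups 9.85% of all genes were called higher in 3B3l-serum and 9.45% lower. The 10 primitive endoderm markers summed to 46.0 to 56.6 in J1-serum and to between 5.13 and 12.3 in every other group, with Afp not well above background on any array. Lama1 alone gave at least 9.70 of the sum in TKO-2i and was not called between the TKO media. Without it the other 9 summed to 2.64 to 3.09 in TKO-serum and 0.889 to 1.12 in TKO-2i, and to 2.36 to 2.45 in 3B3l-serum and 1.41 to 1.59 in 3B3l-2i. With 2i, 8 of the 9 tested endoderm markers were lower in J1, 6 in TKO (median log2 difference -1.65) and 4 in 3B3l (median -0.96), and none was higher, so these markers too moved with medium in all 3 lines. For all genes tested the shares called lower were 12.6%, 9.1% and 7.96%. The 9 neural markers, chosen because neural progenitors share Sox3, Zic2, Otx2 and Lin28 genes, summed to 4.16 to 5.02 in J1-serum, 4.93 to 5.29 in J1-2i, 8.58 to 9.28 in TKO-serum, 7.04 to 7.96 in TKO-2i, 8.39 to 8.68 in 3B3l-serum and 5.0 to 5.19 in 3B3l-2i. Of these 9, 3 to 6 were well above background on all arrays of a group, and Dcx and Neurog2 on none. The 8 paraxial mesoderm markers, a tissue that uses Tcf15, summed to 1.07 to 1.32 in J1-serum and 0.448 to 0.640 in J1-2i. The sum was 0.969 to 1.07 in TKO-serum, 0.683 to 0.866 in TKO-2i, 0.913 to 1.07 in 3B3l-serum and 1.08 to 1.22 in 3B3l-2i. Of 3 tested, Msgn1 (-1.81) and Mesp2 (-1.83) were called lower with 2i in J1, Mesp2 (-1.47) in TKO and none in 3B3l. Only 0 to 3 of the 8 were well above background on all arrays of a group. Meox1, Meox2, Pax3 and Foxc1 were so on none of the 16. The part of such cells in the values of the 9 genes was not tested.

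The arrays lay on 3 slides. On slide 1 were 2 arrays each of J1-serum, J1-2i, TKO-serum and TKO-2i. Slide 2 carried 1 array each of J1-serum, J1-2i and TKO-2i. The remaining J1-serum array, replicate 1, shared slide 3 with the 3B3l cultures, and that slide was scanned on another day. No slide held both 3B3l and TKO, or both 3B3l-2i and J1-2i, and a fit with the slide as a block links them through that 1 J1-serum array alone. The 3B3l response to 2i lay within slide 3. Within slide 1, all 6 calls of the J1 response and all 9 of the TKO response were made again.

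**Figure D1:**
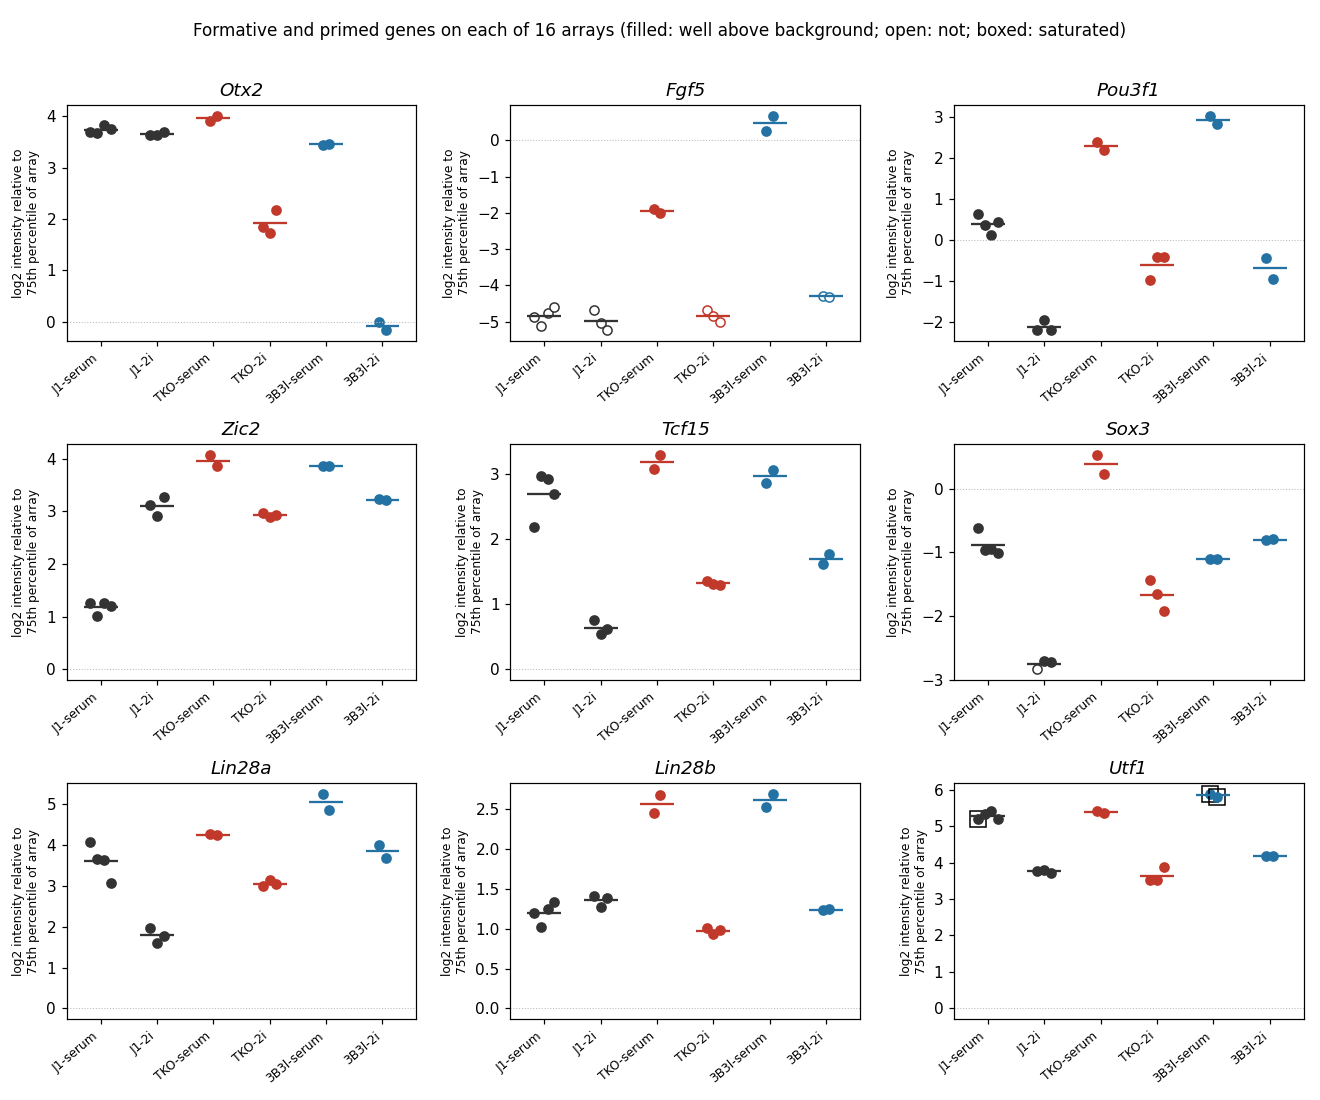
Level of each gene on each of the 16 arrays (y axis: log2 intensity minus that of the array's 75th percentile; x axis: group). Points are arrays, bars group means, open points arrays not well above background and boxes saturated spots. Otx2 has means of 3.74 and 3.65 in the J1 groups and drops to 1.92 in TKO-2i and -0.08 in 3B3l-2i, Zic2 is lowest in J1-serum and Fgf5 is well above background only in TKO-serum and 3B3l-serum.

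The response to 2i was asked of each line in turn. In J1, 5 of the 9 genes fell and 1 rose, where 22.7% of all genes tested were called in either direction, 12.6% lower and 10.1% higher. In TKO, all 9 genes were called lower, where 15.8% of all genes were called, 9.1% lower and 6.73% higher. The call of Fgf5 rests on 2i arrays at background, on a filter passed through the serum groups alone, and on a bound of 1.49-fold that is under the fold limit. Without Fgf5, 8 of 8 genes were called lower in TKO and 6 of 8 in 3B3l. In 3B3l, 7 of 9 fell and none rose, where 13.6% were called, 7.96% lower and 5.61% higher. An unmoderated unpaired test of each gene on the same 3B3l arrays, with Benjamini-Hochberg adjustment, called 1 of the 9 in place of 7. The median log2 difference of the 9 genes was -1.53 in J1, -1.87 in TKO and -1.38 in 3B3l, beside 0.05, 0.07 and 0.00 over all genes tested. Without Fgf5 it was -1.68, -1.80 and -1.32. The 4 genes Pou3f1, Tcf15, Lin28a and Utf1 fell in all 3 lines, which held for 3.6% of all genes, and none rose in all 3, which held for 2.04%. For Otx2, Zic2, Sox3 and Lin28b the response differed between lines, by the tests given with each gene. That of Pou3f1 differed between 3B3l and J1, in a call lost when certain single arrays were left out. The response of Fgf5 in J1 was not measured.

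**Figure D2:**
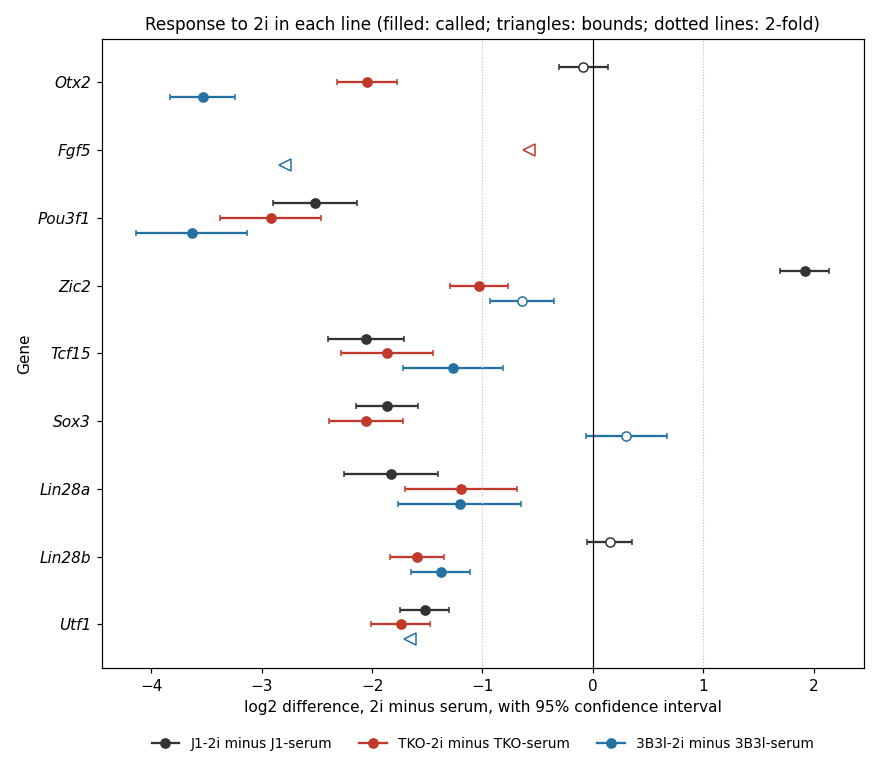
Log2 difference between 2i and serum (x axis, with 95% confidence interval) for each gene (y axis) in J1, TKO and 3B3l. Filled points were called, triangles are bounds with no interval (Fgf5 in TKO and 3B3l, Utf1 in 3B3l) and dotted lines mark 2-fold. All TKO points lie below 0, Fgf5 has no point in J1, Zic2 lies at 1.92 in J1, and Otx2 is at -0.09, -2.04 and -3.54 in the 3 lines.

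Pou3f1, the POU factor Oct6 of the early epiblast, had the largest fall in J1 among the 9 genes. It read 0.64, 0.37, 0.11 and 0.44 on the J1-serum arrays and -2.20, -1.96 and -2.21 on the J1-2i arrays. It read 2.40 and 2.21 in TKO-serum against -0.99, -0.43 and -0.42 in TKO-2i, and 3.04 and 2.83 in 3B3l-serum against -0.44 and -0.96 in 3B3l-2i. In each line every serum array lay above every 2i array. The difference was -2.52 (SE 0.18, adjusted p = 1.14e-07) in J1, -2.92 (SE 0.21, adjusted p = 3.43e-07) in TKO and -3.63 (SE 0.23, adjusted p = 1.54e-07) in 3B3l.

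Pou3f1 was also the only member called above J1 in both other lines and both media. The difference from J1 was 1.91 in TKO-serum (SE 0.20, adjusted p = 8.53e-06) and 2.54 in 3B3l-serum (SE 0.20, adjusted p = 6.58e-07). In 2i it was 1.51 for TKO (SE 0.19, adjusted p = 9.98e-05) and 1.43 for 3B3l (SE 0.21, adjusted p = 0.000231). The levels ran from 3B3l-serum through TKO-serum, J1-serum, TKO-2i and 3B3l-2i to J1-2i. The neighbours 3B3l-serum and TKO-serum (0.63 apart, adjusted p = 0.0585) and TKO-2i and 3B3l-2i (0.09 apart, adjusted p = 0.803) were not separated beyond their spread. With background correction by normexp, the call for 3B3l-2i against J1-2i was lost at 0.99. On slide 2, with 1 array each and no test, TKO-2i was 0.97 above J1-2i.

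Tcf15, a basic helix-loop-helix factor that primes mESCs for differentiation and later marks paraxial mesoderm, fell in each line. Its levels were 2.19, 2.96, 2.92 and 2.69 in J1-serum and 0.75, 0.54 and 0.62 in J1-2i. They were 3.07 and 3.29 in TKO-serum and 1.35, 1.31 and 1.29 in TKO-2i, then 2.86 and 3.06 in 3B3l-serum and 1.61 and 1.77 in 3B3l-2i. Serum and 2i arrays did not overlap in any line. The difference was -2.06 in J1 (SE 0.16, adjusted p = 3.04e-07), -1.87 in TKO (SE 0.19, adjusted p = 7.59e-06) and -1.27 in 3B3l (SE 0.21, adjusted p = 0.000589). The 3 serum groups could not be ordered, with neighbours 0.22 and 0.27 apart (adjusted p = 0.456 and 0.243). Among the 2i groups, 3B3l-2i was 1.06 above J1-2i (SE 0.19, adjusted p = 0.000979), which fell to 0.98 without 3B3l-2i replicate 2 and to 0.87 with normexp, both under 2-fold. TKO-2i was 0.68 above J1-2i (SE 0.17, adjusted p = 0.0122), under 2-fold.

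Utf1, a chromatin-bound factor of undifferentiated cells, fell in each line. It read 5.19, 5.32, 5.42 and 5.18 in J1-serum and 3.76, 3.81 and 3.70 in J1-2i, 5.41 and 5.36 in TKO-serum and 3.52, 3.51 and 3.89 in TKO-2i, and 5.88 and 5.80 in 3B3l-serum and 4.18 and 4.18 in 3B3l-2i. No serum array overlapped a 2i array of any line. The spot was saturated on 1 J1-serum array and on both 3B3l-serum arrays. The difference was -1.53 in J1 (SE 0.10, adjusted p = 7.42e-08) and -1.74 in TKO (SE 0.12, adjusted p = 2.58e-07), and in 3B3l-2i Utf1 was at least 3.16-fold lower than in serum (adjusted p = 1.33e-06). The responses of TKO and J1 differed by -0.22 with a 95% interval of -0.56 to 0.13. Utf1 was not called between lines in either medium. The closest to a call was 3B3l-serum against J1-serum, at a measured 0.56 (SE 0.12, adjusted p = 0.00154), under 2-fold and with the 3B3l-serum spots saturated.

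Otx2, the homeodomain factor of the epiblast and anterior neural plate, was called between all lines in 2i and between none in serum. Its levels were 3.70, 3.67, 3.84 and 3.75 in J1-serum and 3.63, 3.63 and 3.69 in J1-2i. They were 3.91 and 4.01 in TKO-serum and 1.85, 1.72 and 2.18 in TKO-2i. The 3B3l arrays gave 3.44 and 3.47 with serum, and -0.01 and -0.16 with 2i. The J1 groups overlapped at their edges, while the 2i arrays of TKO and 3B3l lay far below every serum array.

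The 2i response of Otx2 was -0.09 in J1 (SE 0.10, 95% interval -0.31 to 0.14, adjusted p = 0.531). It was -2.04 in TKO (SE 0.12, adjusted p = 8.05e-08) and -3.54 in 3B3l (SE 0.14, adjusted p = 3.25e-09), which are falls of 4.13-fold and 11.6-fold. The response differed from that of J1 by -1.96 in TKO (SE 0.16, adjusted p = 3.07e-06) and by -3.45 in 3B3l (SE 0.17, adjusted p = 4.54e-08), and 3B3l differed from TKO by -1.49 (SE 0.18, adjusted p = 0.000149). In 2i, Otx2 was lower than in J1 by -1.74 in TKO (adjusted p = 4.08e-07) and by -3.74 in 3B3l (adjusted p = 1.49e-09). In serum no line was called against another, although 3B3l-serum read -0.51 against TKO-serum (SE 0.14, adjusted p = 0.0148) with no overlap of the arrays, a difference under 2-fold. The 4 highest groups in the order of levels, TKO-serum, J1-serum, J1-2i and 3B3l-serum, had neighbours 0.09 to 0.22 apart with adjusted p of 0.16 to 0.531.

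Zic2, a zinc finger factor of the epiblast and neural plate that also acts at mESC enhancers, was the only 1 of the 9 genes that rose in J1. It read 1.27, 1.01, 1.25 and 1.19 in J1-serum and 3.12, 2.91 and 3.27 in J1-2i. The readings were 4.08 and 3.85 in TKO-serum and 2.97, 2.89 and 2.94 in TKO-2i, and 3.86 and 3.87 in 3B3l-serum and 3.23 and 3.21 in 3B3l-2i. J1-serum lay below all other arrays by more than the spread of any group, and in TKO and 3B3l the serum arrays lay above the 2i arrays.

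The rise of Zic2 in J1 was 1.92 (SE 0.10, adjusted p = 8.52e-09), or 3.78-fold. In TKO the gene fell by 1.03 on the log2 scale (SE 0.12, adjusted p = 2.45e-05), which is at the fold limit and became -0.98 with the slide as a block and -0.92 without TKO-serum replicate 1. In 3B3l the difference was -0.64 (SE 0.13, adjusted p = 0.00301), under 2-fold. The TKO response differed from that of J1 by -2.95 (SE 0.16, adjusted p = 1.29e-07) and the 3B3l response by -2.56 (SE 0.17, adjusted p = 3.64e-07). In serum Zic2 was 2.78 above J1 in TKO (SE 0.11, adjusted p = 6.12e-09) and 2.68 in 3B3l (SE 0.11, adjusted p = 5.75e-09). In 2i the differences from J1 were -0.17 (95% interval -0.40 to 0.07) and 0.12 (95% interval -0.14 to 0.38), neither called. J1-serum was also the only group grown on feeder cells and the 1 with the high primitive endoderm sum given above.

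Sox3, an HMG-box factor of the SoxB1 group on the X chromosome that is active in epiblast and neural progenitors, fell in J1 and TKO and not in 3B3l. It read -0.62, -0.96, -0.95 and -1.01 in J1-serum and -2.83, -2.71 and -2.72 in J1-2i, where 2 of 3 arrays were well above background. TKO-serum read 0.53 and 0.23 and TKO-2i -1.44, -1.66 and -1.93. The 3B3l arrays gave -1.10 and -1.10 with serum, and -0.80 and -0.80 with 2i, so that 2i was above serum there.

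The difference of Sox3 was -1.87 in J1 (SE 0.13, adjusted p = 9.78e-08), -2.06 in TKO (SE 0.15, adjusted p = 4.56e-07) and 0.30 in 3B3l (SE 0.17, adjusted p = 0.243). The 3B3l response differed by 2.17 from that of J1 (SE 0.21, adjusted p = 1.02e-05) and by 2.36 from that of TKO (SE 0.23, adjusted p = 2.02e-05). Against J1, Sox3 was 1.27 higher in TKO-serum (SE 0.15, adjusted p = 1.9e-05) and 1.95 higher in 3B3l-2i (SE 0.15, adjusted p = 1.64e-06). TKO-2i was 1.08 higher than J1-2i (SE 0.14, adjusted p = 0.000122). That last call stood at the fold limit and was lost at 0.99 with the array median as the scale, at 0.73 with normexp, at 0.98 within slide 1 and at 0.96 without TKO-2i replicate 1. The neural marker sum was higher in TKO-serum than in J1-serum as well, and about as high in 3B3l-serum, where Sox3 differed from J1-serum by -0.22 (SE 0.15, adjusted p = 0.25).

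Fgf5 was well above background only in serum and only in TKO and 3B3l. It read -1.91 and -2.01 in TKO-serum and 0.26 and 0.68 in 3B3l-serum. On the other 12 arrays it lay between -5.23 and -4.29 and was never well above background, with -4.87, -5.11, -4.76 and -4.60 in J1-serum and -4.69, -5.03 and -5.23 in J1-2i. TKO-2i read -4.69, -4.83 and -5.01, and 3B3l-2i read -4.29 and -4.32. In intensity units this is 372 and 317 in TKO-serum and 1275 and 1675 in 3B3l-serum, against 31.8 to 61.4 elsewhere.

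Since the dim groups give only a bound, Fgf5 was at least 1.54-fold higher in TKO-serum than in J1-serum (adjusted p = 1.1e-07) and at least 8.28-fold higher in 3B3l-serum (adjusted p = 1.19e-09). The fall with 2i was at least 1.49-fold in TKO (adjusted p = 1.37e-07) and at least 6.92-fold in 3B3l (adjusted p = 7.17e-09). These 4 p-values compare measured readings with readings at background. The gene passed the filter only through the groups where it was high, which largely fixed these calls, so they are no support for the counts of called genes. Between the groups that were both measured, 3B3l-serum was 2.43 above TKO-serum (SE 0.21, adjusted p = 3.82e-06), or 5.39-fold. No fold is given for J1 with 2i, since neither group was well above background there.

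Lin28a, the RNA-binding partner of the uridyl transferases that tail let-7 precursors, fell in all 3 lines. Its levels were 4.07, 3.67, 3.64 and 3.07 in J1-serum and 1.98, 1.60 and 1.78 in J1-2i. They were 4.27 and 4.25 in TKO-serum against 2.99, 3.15 and 3.04 in TKO-2i, and 5.26 and 4.86 in 3B3l-serum against 4.01 and 3.69 in 3B3l-2i. The J1-serum arrays were the most widely spread of the groups for this gene, yet all lay above the J1-2i arrays. The difference with 2i was -1.83 in J1 (SE 0.20, adjusted p = 5.68e-06), -1.20 in TKO (SE 0.23, adjusted p = 0.00149) and -1.21 in 3B3l (SE 0.26, adjusted p = 0.00351).

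In 2i, Lin28a was higher in both other lines, with TKO 1.27 above J1 (SE 0.21, adjusted p = 0.000807) and 3B3l 2.06 above J1 (SE 0.23, adjusted p = 2.84e-05). The gap of 0.79 between 3B3l-2i and TKO-2i (SE 0.23, adjusted p = 0.0231) was under 2-fold. In serum 3B3l was 1.45 above J1 (SE 0.22, adjusted p = 0.000162). This call was lost at 0.99 with the slide as a block (adjusted p = 0.0163) and within slide 3 (adjusted p = 0.0681), where 1 J1-serum array stood against the 3B3l arrays. TKO-serum was 0.64 above J1-serum (SE 0.22, adjusted p = 0.0349), under 2-fold. The 2i level of 3B3l was not separated from the serum level of J1, at 0.24 with a 95% interval of -0.24 to 0.72.

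Lin28b, the paralog of Lin28a that acts on let-7 mainly in the nucleus, was raised in serum in both other lines. It read 1.19, 1.02, 1.25 and 1.34 in J1-serum and 1.41, 1.28 and 1.38 in J1-2i. TKO-serum read 2.45 and 2.68, and TKO-2i 1.01, 0.93 and 0.98. The readings were 2.54 and 2.70 in 3B3l-serum and 1.23 and 1.25 in 3B3l-2i. The 4 arrays of TKO-serum and 3B3l-serum lay above the other 12 with no overlap.

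Against J1-serum, Lin28b was 1.37 higher in TKO-serum (SE 0.11, adjusted p = 7.2e-07) and 1.42 higher in 3B3l-serum (SE 0.11, adjusted p = 4.62e-07). It fell with 2i by 1.59 on the log2 scale in TKO (SE 0.11, adjusted p = 2.77e-07) and by 1.38 in 3B3l (SE 0.12, adjusted p = 3.42e-06). In J1 the difference with 2i was 0.15 (SE 0.09, 95% interval -0.05 to 0.36, adjusted p = 0.203). In 2i, TKO read -0.38 against J1 (SE 0.10, adjusted p = 0.016) with no overlap of the arrays, a difference under 2-fold, and 3B3l read -0.12 (SE 0.11, adjusted p = 0.439). The responses of TKO and 3B3l differed from that of J1 by -1.75 (SE 0.15, adjusted p = 3.4e-06) and -1.53 (SE 0.16, adjusted p = 1.39e-05). The second probe of Lin28b was not well above background on any array, with 161 and 171 intensity units in TKO-serum, 98.0 and 81.4 in 3B3l-serum and 37.6 to 72.9 on the other 12 arrays, and was not tested.

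Lin28b and Fgf5 had similar profiles over the arrays, with a Pearson correlation of 0.922 over 16 arrays that share lines, media and slides, 12 of them with Fgf5 at background. Their promoters are shown to set the letters of both genes beside these levels, since CG dinucleotides are the target of the enzymes that TKO lacks. The 250 bases before the start of transcription were read from RefSeq on GRCm38.p6, and CG dinucleotides are in capitals. The Fgf5 window is chr5:98253934-98254183 on the plus strand and holds 24 CG. The Lin28b window is chr10:45470202-45470451 on the minus strand and holds 6 CG.
Fgf5: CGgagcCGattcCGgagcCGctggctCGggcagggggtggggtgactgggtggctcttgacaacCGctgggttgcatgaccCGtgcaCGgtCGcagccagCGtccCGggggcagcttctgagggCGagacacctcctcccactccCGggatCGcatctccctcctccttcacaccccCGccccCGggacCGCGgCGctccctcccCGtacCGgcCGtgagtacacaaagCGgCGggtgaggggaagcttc
Lin28b: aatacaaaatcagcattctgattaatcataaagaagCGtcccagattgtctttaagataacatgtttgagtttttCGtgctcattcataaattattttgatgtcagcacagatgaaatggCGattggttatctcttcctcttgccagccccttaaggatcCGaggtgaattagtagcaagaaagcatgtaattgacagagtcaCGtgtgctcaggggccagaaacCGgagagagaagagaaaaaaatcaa

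The median over all 32851 promoters of the RefSeq table was 6 CG in such a window. DNA methylation was not analysed here. Utf1 and Lin28a, which fell with 2i in every line, are shown for comparison. The Utf1 window is chr7:139943606-139943855 on the plus strand with 14 CG, and the Lin28a window is chr4:134018817-134019066 on the minus strand with 7 CG.
Utf1: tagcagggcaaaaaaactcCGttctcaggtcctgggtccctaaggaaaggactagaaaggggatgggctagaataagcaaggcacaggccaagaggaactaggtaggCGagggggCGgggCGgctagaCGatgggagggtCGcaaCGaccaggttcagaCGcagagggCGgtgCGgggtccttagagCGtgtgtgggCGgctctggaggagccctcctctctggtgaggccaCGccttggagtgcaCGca
Lin28a: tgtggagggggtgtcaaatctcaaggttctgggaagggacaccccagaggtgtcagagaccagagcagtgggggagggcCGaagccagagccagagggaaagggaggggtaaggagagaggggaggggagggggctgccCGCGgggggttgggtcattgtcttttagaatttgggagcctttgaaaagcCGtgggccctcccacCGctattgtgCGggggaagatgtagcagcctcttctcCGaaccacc

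Promoters were found for 5 of the 9 genes in 8 windows, and those of Otx2, with 4 starts, held 6 to 14 CG. Both strands of the windows were searched for 5 motifs. The POU octamer ATGCAAAT was in none of the 8 windows and in 1.6% of all promoters. The OTX motif TAATCC was in 1 window, of Otx2, and in 6.3% of all, and the TATA box TATAAA in 1 window, of Otx2, and in 12.4% of all. The TCF/LEF core CTTTGA was in 1 window, of Lin28a, and in 13.8% of all. The SOX core ACAAAG was in 1 window, of Fgf5, and in 16.5% of all. Read on the other strand, CTTTGA shares 5 of its 6 letters with ACAAAG, and a match describes letters only.

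Each other line was next compared with J1 in each medium. In serum, line cannot be told apart from the feeder cells that only J1-serum had. In 2i, 3B3l and J1 shared no slide and are linked through 1 J1-serum array alone. In serum, 5 of the 9 genes were higher in TKO than in J1 and none lower (Fgf5, Zic2, Pou3f1, Lin28b and Sox3), where 16.5% of all genes were called, 7.77% higher and 8.73% lower. The Fgf5 call rests on J1 arrays at background, with a bound of 1.54-fold that is under the fold limit, and without this gene 4 of 8 were higher in each line. In 3B3l-serum 5 were higher and none lower (Fgf5, Zic2, Pou3f1, Lin28a and Lin28b), where 19.3% were called, 9.85% higher and 9.45% lower. In 2i, 3 were higher in TKO (Pou3f1, Lin28a and Sox3) and Otx2 was lower, where 7.38% were called, 3.83% higher and 3.55% lower. In 3B3l-2i, 4 were higher (Lin28a, Sox3, Pou3f1 and Tcf15) and Otx2 was lower, where 14.4% were called, 7.81% higher and 6.55% lower. Both lines are set against the same J1 arrays, so the comparisons are not independent of each other. The median log2 difference of the 9 genes was 1.27 in TKO-serum and 1.42 in 3B3l-serum, and 0.14 and 0.68 in 2i, beside 0.01, 0.13, 0.05 and 0.09 over all genes tested. Without Fgf5 the medians were 0.96, 0.99, 0.28 and 0.74, and with Fgf5 at its bound the serum medians were 0.64 and 1.42.

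**Figure D3:**
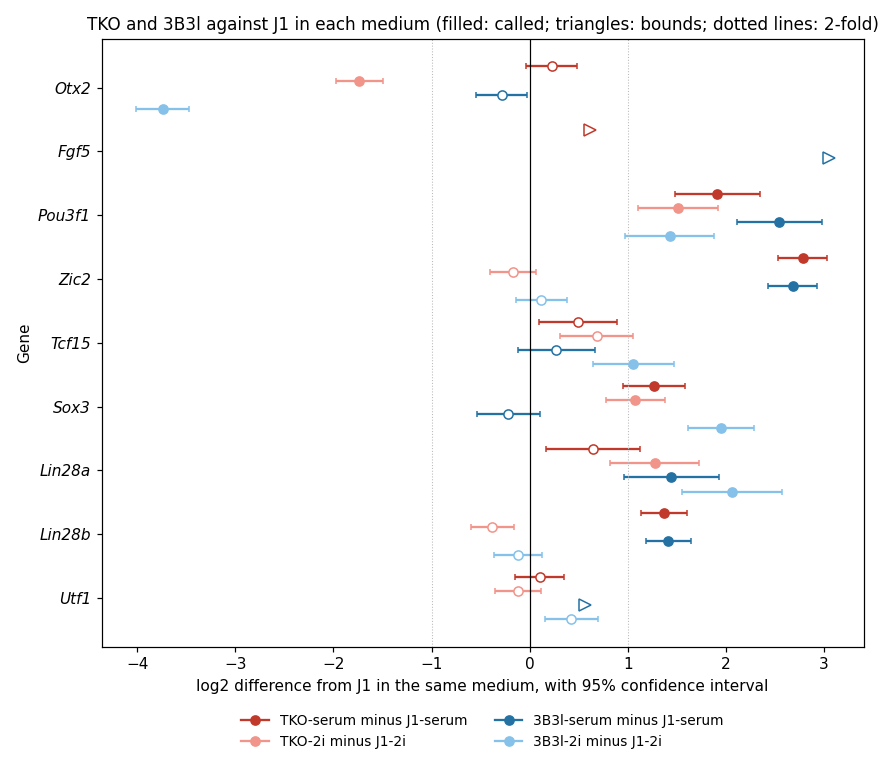
Log2 difference of TKO and 3B3l from J1 in the same medium (x axis, with 95% confidence interval) for each gene (y axis). Dark colours are serum, light colours 2i, filled points were called, triangles are bounds with no interval (Fgf5 in serum, Utf1 in 3B3l-serum) and dotted lines mark 2-fold. Zic2 and Lin28b lie to the right in serum and between -0.38 and 0.12 in 2i, Fgf5 lies to the right in serum and has no point in 2i, and Otx2 lies to the left in 2i at -1.74 and -3.74.

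TKO and 3B3l were also compared with each other. In serum Fgf5 was higher in 3B3l and Sox3 was lower by -1.48 (SE 0.17, adjusted p = 4.5e-05), where 10.7% of all genes were called, 5.19% higher and 5.53% lower. In 2i only Otx2 was called, lower by -2.0 in 3B3l (SE 0.12, adjusted p = 2.13e-07), where 10.1% were called, 4.66% higher and 5.39% lower. Without the fold limit 5 of the 9 genes passed the adjusted p in each of these comparisons, beside 32.7% of all genes in serum and 32.8% in 2i, where the 5 include Fgf5 with both groups at background. Zic2 and Lin28b, whose serum means were closest in these lines, differed by -0.10 (95% interval -0.39 to 0.18) and 0.05 (95% interval -0.22 to 0.32).

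The 2i responses themselves were then compared. Fgf5 has no measured difference of responses, since both J1 groups and both other 2i groups were at background, and it is left out here. Between TKO and J1 the responses differed for 3 of the other 8 genes, all more negative in TKO (Zic2, Otx2 and Lin28b), where 15.3% of all genes were called, 7.79% more positive and 7.5% more negative. Between 3B3l and J1 they differed for 5 of the 8, where 17.2% were called (8.65% more positive, 8.59% more negative), with 4 more negative in 3B3l (Otx2, Zic2, Lin28b and Pou3f1) and Sox3 more positive. For Pou3f1 the difference was -1.12 (SE 0.29, adjusted p = 0.0124), and the call was lost without 3B3l-serum replicate 1 (-1.01) or without 3B3l-2i replicate 2 (-0.86). Between 3B3l and TKO they differed for Otx2 and Sox3, where 9.5% were called, 4.69% more positive and 4.8% more negative. For Tcf15, Lin28a and Utf1 no difference between the responses was called. Tcf15 came closest, at 0.79 between 3B3l and J1 (SE 0.26, adjusted p = 0.0433), under 2-fold. For Lin28a the intervals reached past 2-fold, from -0.03 to 1.29 between TKO and J1 and from -0.08 to 1.32 between 3B3l and J1. Those of Tcf15 did so for 3B3l, from 0.22 to 1.36 against J1 and from -0.02 to 1.21 against TKO. For Utf1 the 3B3l response is only a bound, since its 3B3l-serum spots were saturated.

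**Figure D4:**
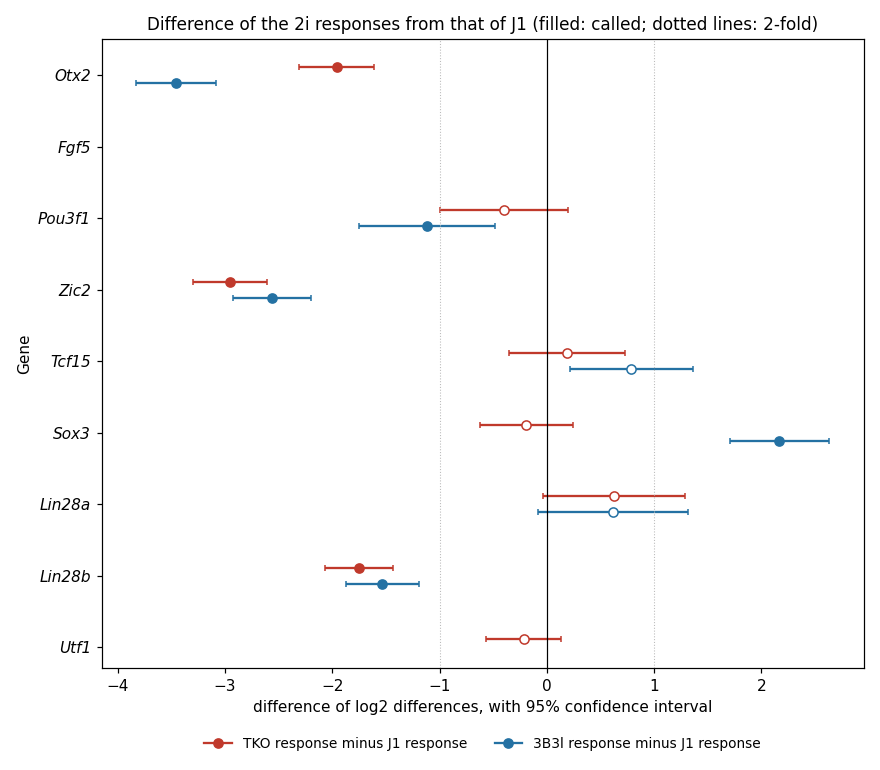
Difference of the 2i response of TKO and 3B3l from that of J1 (x axis, difference of log2 differences with 95% confidence interval) for each gene (y axis). Filled points were called and dotted lines mark 2-fold. Otx2, Zic2 and Lin28b lie left of -1 in both lines and Sox3 lies at 2.17 in 3B3l. No point is drawn for Fgf5, which was at background in 4 groups, or for Utf1 in 3B3l, whose serum spots were saturated.

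The genes around the 9 were described from 5 lists, whose counts include genes that were not well above background in either group of a comparison. Of 26 other formative and primed genes, 23 were tested. In J1 3 rose and 9 fell with 2i, in TKO 2 rose and 9 fell, and in 3B3l 2 rose and 11 fell, with median differences of -0.33, -0.84 and -0.84. Over all genes tested, 10.1% were called higher and 12.6% lower in J1, 6.73% and 9.1% in TKO, and 5.61% and 7.96% in 3B3l. The shares of the list that rose were near those of all genes. Cldn6, a tight junction protein of the epiblast, differed by -4.29 in J1 (SE 0.23, adjusted p = 1.09e-08), -3.93 in TKO and -4.67 in 3B3l, a fall in each line. Fgf15, a growth factor of the early embryo, was at least 6.90-fold lower in J1-2i, at least 26.0-fold lower in TKO-2i and at least 3.43-fold lower in 3B3l-2i. Dnmt3l fell too, with -3.90 for J1. Its spots were saturated on both arrays of TKO-serum and of 3B3l-serum, so that the measured -2.60 for TKO and -1.46 for 3B3l, where it is also expressed from a transgene, give only the least size of the fall and no order of the lines. Foxa2, a factor of the node and endoderm, fell at least 4.90-fold with 2i in J1 and was not well above background in the other lines in either medium, beside the primitive endoderm sum of J1-serum given above.

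The naive list of 15 transcription and signalling factors ran the other way in J1. With 2i 8 rose and 0 fell in J1, 3 rose and 0 fell in TKO, and 4 rose and 1 fell in 3B3l, with medians of 1.07, 0.37 and 0.26. Of all genes tested, 10.1%, 6.73% and 5.61% were called higher in these lines and 12.6%, 9.1% and 7.96% lower. Prdm14, a zinc finger factor of naive and germ cells, rose by 2.79 in J1 (SE 0.10, adjusted p = 2.73e-10), by 1.57 in TKO and by 1.25 in 3B3l. Tfcp2l1, a factor downstream of LIF and CHIR99021, rose by 2.56, 2.78 and 2.24 in the same order. Tbx3 rose by 2.35, 2.02 and 1.43. Nr5a2 rose by 1.94 in J1 (adjusted p = 1.11e-07), while its differences of 0.82 in TKO and 0.58 in 3B3l were under 2-fold.

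Of 19 genes of the FGF to ERK pathway, through which Fgf5 signals and which PD0325901 blocks, none rose. In J1 9 fell, in TKO 7 and in 3B3l 7, with medians of -0.67, -0.43 and -0.79. The shares of all genes called lower were 12.6%, 9.1% and 7.96%, and those called higher 10.1%, 6.73% and 5.61%. Ier3, an immediate early gene, fell, at -3.68 in J1 (SE 0.12, adjusted p = 1.87e-10), -1.08 in TKO and -1.89 in 3B3l. Dusp4, a phosphatase that acts on MAP kinases, was at least 13.4-fold lower in J1-2i, at least 3.88-fold in TKO-2i and at least 25.5-fold in 3B3l-2i. Egr1 fell, at -2.89 in J1 and -4.65 in TKO, where 2 of 3 2i arrays were well above background, and was at least 22.4-fold lower in 3B3l-2i. Spry4, a feedback inhibitor of receptor tyrosine kinases, fell at least 4.72-fold with 2i in J1 and also in the other lines, at -3.41 in TKO, where 1 of 3 2i arrays was well above background, and -1.31 in 3B3l (adjusted p = 0.0412).

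Of 13 genes around Lin28 and let-7, 2 rose and 1 fell in J1, 1 rose and 2 fell in TKO, and 0 rose and 3 fell in 3B3l, with medians of 0.03, 0.22 and -0.48. Among all genes tested, 22.7%, 15.8% and 13.6% were called in either direction, and the J1 count was near that share. Myc, a known let-7 target, fell, at -1.74 in J1 (SE 0.16, adjusted p = 1.65e-06), -2.61 in TKO and -1.76 in 3B3l. Igf2bp3, an RNA-binding protein and let-7 target, rose by 1.25 in J1 (adjusted p = 1.94e-08), and its 0.72 in TKO and 0.89 in 3B3l were under 2-fold. Dicer1, which cuts microRNA precursors, rose by 1.01 in J1 (adjusted p = 0.000142) and read 0.52 in TKO and -0.78 in 3B3l, neither called. Of 16 close family members of the 9 genes, 9 were tested, of which 0 rose and 1 fell in J1, and 0 rose and 4 fell in each of TKO and 3B3l. All-gene shares called lower were 12.6% in J1, near the share here, 9.1% in TKO and 7.96% in 3B3l. Those called higher were 10.1%, 6.73% and 5.61%. The 1 that fell in J1 was Scx, a relative of Tcf15 active in tendon and other mesenchyme, at least 4.31-fold lower in J1-2i. Among the 4 in TKO and in 3B3l were Scx, not well above background there in either medium, and Zic1 and Zic5, relatives of Zic2 named after their values were seen. In the order J1, TKO and 3B3l, Zic5 had differences of -0.14, -2.21 and -1.41 and Zic1 of 0.24, -1.22 and -1.08, with no call in J1.

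**Figure D5:**
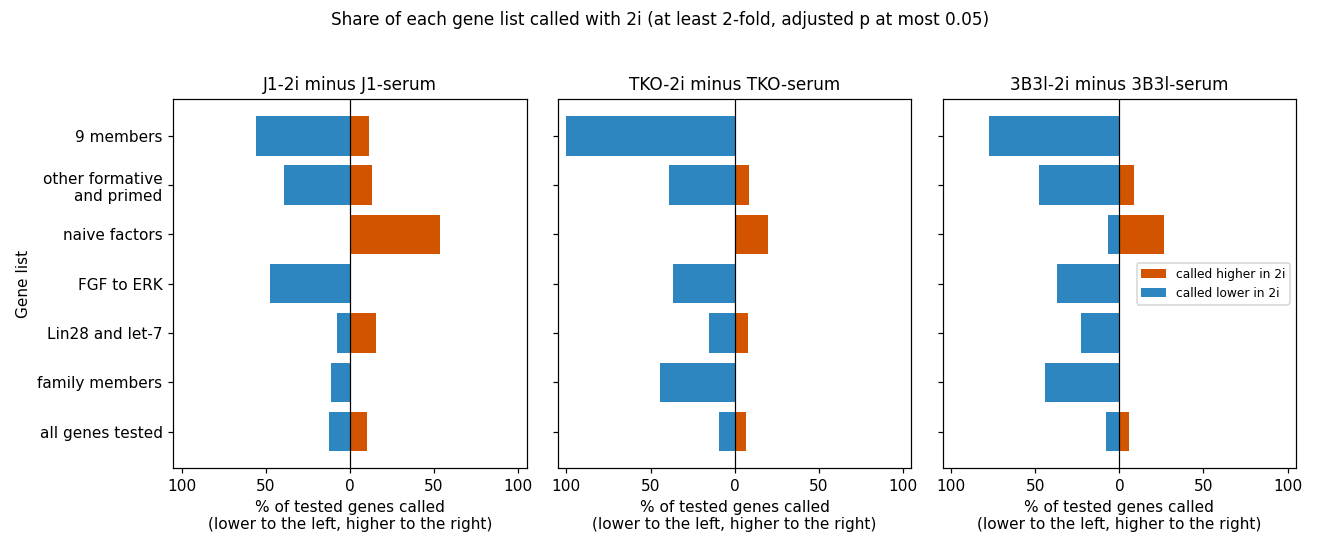
Share of each gene list called with 2i (x axis, % of tested genes, lower to the left and higher to the right) in J1, TKO and 3B3l, for the 9 genes, the 5 other lists and all genes tested (y axis). All 9 genes are called lower in TKO, Fgf5 among them with 2i arrays at background, the naive list is called higher for 8 of 15 genes in J1, and the FGF to ERK list has no gene called higher.

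For each of the 9 genes the 3 genes with the most similar profile over the 16 arrays were taken from 13638 genes, by Pearson correlation and as a description, since arrays share line, medium and slide. Otx2 was closest to B3glct (0.964), Lefty1 (0.955) and Gm10439 (0.945), and Lefty1 is a Nodal inhibitor of the epiblast. Fgf5, at background outside TKO-serum and 3B3l-serum, was closest to Samd5 (0.981), Cysltr1 (0.981) and Ssbp3 (0.972). Pou3f1 was closest to Ajuba (0.983), 2010204K13Rik (0.982) and Psors1c2 (0.971). The closest genes were picked as the highest of 13638, so their correlations cannot be weighed against those between the 9 genes.

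Zic2 was closest to Bicd1 (0.979), Foxd3 (0.975) and Thada (0.974), and Foxd3 is a forkhead factor of the epiblast. Tcf15 was closest to Zfp423 (0.978), Tcfl5 (0.976) and Myh6 (0.975), and Sox3 to Rhox10 (0.961), Grk5 (0.956) and Snn (0.955). Lin28a was closest to Ccne1 (0.971), Rad52 (0.963) and Sfi1 (0.960). Cyclin E1, the product of Ccne1, drives entry into S phase. Lin28b had Syt4 (0.966) and Zic5 (0.956) among its closest genes, and Utf1 was closest to Psmb8 (0.984), Sox4 (0.980) and AU015836 (0.980). Among the 9 genes the correlations ran from -0.186, between Otx2 and Zic2, to 0.926, between Tcf15 and Utf1.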

How the data were processed

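RNA of 16 samples was amplified and hybridised to one-colour Agilent arrays, scanned, and read with Agilent Feature Extraction 11.5.1.1 per the labels and methods. The deposited scanner intensity (background-subtracted processed signal) was used. A table of log2 values that the authors had quantile-normalized was deposited too and served only as an alternative, since 13 of its 16 columns matched another replicate of the same group best.

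Per array, control spots and outlier spots were dropped but not saturated ones, spots of a probe were averaged, and log2 intensity was set against the 75th percentile. A probe was tested where all arrays of 1 group or more read it well above background (27126 probes, 13928 named genes; 9262 probes were unnamed and 888 lacked a value on some array). limma 3.58.1 in R 4.3.3 fitted 6 group means, with eBayes, two-sided tests and Benjamini-Hochberg adjustment over all tested probes. A call needed an adjusted p of at most 0.05 and 2-fold. Each gene stands by its probe with the highest mean. A group dim or saturated on all its arrays gives only a bound: its lowest signal well above background, or the probe's own where higher, took the place of a dim value. Names came from RefSeq accessions, used for names only, and 6 probes were named differently by the 2 grid versions. Arrays of a group correlated at 0.968 or above. On simulated data for J1-2i minus J1-serum (26238 probes, 200 changed), 88% of changes of 1.5 and 94% of changes of 2.5 on the log2 scale were recovered, with 5 false calls.

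Named were the 9 genes, the 3 genes most like each, at most 4 genes a list with the largest called difference in J1, and the 3 Dnmt genes. Some genes that this rule or a list holds are not reported here. Members and lists were chosen with earlier results of these data known. Alternatives changed scaling, background, filters, outlier spots, slide, replicate block, test, fold limit, probe and single arrays. Normexp (offset 50) used the median signal, in place of the mean signal planned. The number of arrays limits the precision.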

Additional observations from a re-analysis of the deposited data

Results flagged for a closer look

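In J1-serum, the only group of 4 arrays and so the only one set against an outlier limit (groups of 3 were not tested), Sox3 on replicate 1 (-0.62) stood apart from the other 3 arrays, with a gap of 0.848 of the range of the group. It was 1 of 10 probes tested this way, and chance marks about 1 in 20. Replicate 1 was the only J1-serum array on slide 3, so slide and array cannot be told apart here.

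The response to 2i differed between lines, by the difference of differences in the limma fit. Between TKO and J1 it did so for Zic2 (-2.95), Otx2 (-1.96) and Lin28b (-1.75). Between 3B3l and J1 it did so for Otx2 (-3.45), Zic2 (-2.56), Lin28b (-1.53), Pou3f1 (-1.12) and Sox3 (2.17). The Pou3f1 call was lost without 3B3l-serum replicate 1 or without 3B3l-2i replicate 2. Between 3B3l and TKO it did so for Otx2 (-1.49) and Sox3 (2.36). Fgf5 is left out, since at least 2 of the 4 groups in each such difference were at background for it. J1-serum was the only group with feeder cells, so feeders cannot be told apart from line in serum comparisons with J1, nor from medium in the J1 response and in each difference of a response from it.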

How the results depend on the processing

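No difference changed sign in a called gene. With only probes well above background on all 16 arrays, 7 of the 9 genes were tested (Fgf5 and Sox3 were not), and the count of called genes became 3 in place of 5 for TKO-serum against J1-serum, 0 in place of 2 for 3B3l-serum against TKO-serum and 1 in place of 3 for the responses of 3B3l and TKO (counts with Fgf5 included). With normexp it became 3 in place of 5 for 3B3l-2i against J1-2i (Pou3f1 0.99 and Tcf15 0.87 lost). With no fold limit it became 5 in place of 2 for 3B3l-serum against TKO-serum and 5 in place of 1 for 3B3l-2i against TKO-2i. With the slide as a block the last became 2, since Tcf15 reached 1.04. An unmoderated unpaired test of each gene, which the study used for single genes and not for its arrays (limma there), was also run. In the 3B3l response it gave 9 genes unadjusted and 1 after Benjamini-Hochberg, in place of 7. The 9 include Sox3 (0.30) and Zic2 (-0.64), both under 2-fold, so that count had no fold limit. Leaving out 1 array at a time kept each count within 1 of its value, and the calls lost are given beside their genes. For Sox3 in TKO-2i against J1-2i, the authors' table gave 0.99. The replicate block gave the same counts of called genes, 6, 9 and 7 for the responses of J1, TKO and 3B3l, 5, 4, 5, 5, 2 and 1 between lines, and 4, 6 and 3 between responses (Fgf5 included). Correlations of same-numbered arrays ran from -0.27 to 0.29 (33 pairs, median -0.03), beside a median of 0.01 for other numbers, so the numbers do not pair the samples. They are not correlations of the levels themselves, which were 0.968 or above within a group. The median of all tested probes was 0.15 higher in 3B3l-serum than in J1-serum and 0.11 higher than in TKO-serum, and 0.21 higher in J1-2i than in J1-serum with the array median as the scale. Fgf5 on 12 arrays and the second Lin28b probe on all 16 were limited by signal over background.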
